A study of Homo sapiens with 4 samples.

Results

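The genes described here are the antioxidant genes of the glutathione and thioredoxin systems and of the NRF2 response. They were 35 genes chosen by name for their known roles. Of these, 33 had a probe set annotated to them alone and 32 passed a filter on low intensities, out of 19775 genes named on the array and 12728 that passed. PRDX5 and FTH1 had no such probe set in the annotation used here, and the brightest probe set of GPX7 lay at or near the floor on every array, with intensities of 12.9, 16.3 and 12.4 in clones 1, 2 and 3 and 15.1 in pLKO.

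RNA was profiled from MDA-MB-361, an established human breast cancer cell line positive for HER2, on 4 Affymetrix U133 Plus 2.0 arrays. In 3 samples the cells expressed an shRNA against DCD, the gene of the secreted peptide dermcidin, from the lentiviral vector pLKO-puro, and these are named shDCD clone 1, clone 2 and clone 3. The control sample carried the pLKO vector, so every sample had been through transduction with it. Each clone was 1 array with its own hairpin, pLKO was a single array shared by all 3 comparisons, and the question was which genes change when DCD is silenced.

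Peroxiredoxins and glutathione peroxidases remove peroxides, the former with electrons from thioredoxin and the latter with electrons from glutathione. Thioredoxin reductases and glutathione reductase restore those carriers with NADPH, much of which comes from the pentose phosphate pathway. The transcription factor NRF2, encoded by NFE2L2 and held down by KEAP1, raises many of these genes through antioxidant response elements in their regulatory DNA.

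To show which promoters hold that element, its core, TGACNNNGC, was searched on both strands of windows from 250 bases before to 50 bases after each annotated start in RefSeq (GRCh38.p14). Such windows were given for 27 of the 35 genes. Of their 40 windows, 7 held the core, or 17.5%, beside 13.3% of 35116 windows of all genes and 14.9% of 14893 windows of genes that passed the filter. The 9 sites belonged to GCLM, GPX2, GSTP1, KEAP1, PGD and TXNRD1, and 1 site is shown for each of the 7 windows, with the core in capitals and 16 bases on either side. They are in the order GCLM (chr1:93909440-93909480, plus strand), GPX2 (chr14:64942843-64942883, plus), GSTP1 (chr11:67583730-67583770, plus), KEAP1 (chr19:10502778-10502818, plus), PGD (chr1:10398847-10398887, minus) and TXNRD1 at the upstream start (chr12:104215664-104215704, plus) and at the downstream start (chr12:104286914-104286954, minus).
GCLM: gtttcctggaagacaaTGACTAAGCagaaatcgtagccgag
GPX2: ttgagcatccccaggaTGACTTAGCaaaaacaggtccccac
GSTP1: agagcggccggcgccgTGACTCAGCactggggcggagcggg
KEAP1: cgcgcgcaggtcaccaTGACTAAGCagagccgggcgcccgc
PGD: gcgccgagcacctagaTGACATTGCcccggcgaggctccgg
TXNRD1 upstream: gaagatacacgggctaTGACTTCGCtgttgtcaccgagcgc
TXNRD1 downstream: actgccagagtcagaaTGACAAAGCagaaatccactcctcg
GCLM and KEAP1 share the same core, and the GSTP1 core also contains the AP-1 sequence TGACTCA. A match is a description of letters and not a measured site. None of these 6 genes was lower in all 3 clones or higher in all 3 clones than in pLKO. Of all genes that passed the filter, 21.3% were lower and 18.8% higher in all 3, so 6 genes are too few to read a difference.

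The arrays differed in quality, and this moves with the clones. For ACTB, the signal of control probes near the 3' end over that near the 5' end, which rises when transcripts are broken or copied short, was 9.67 in clone 1, 2.58 in clone 2, 42.6 in clone 3 and 5.29 in pLKO. Intensities under the floor of 16 made up 43.9%, 39.3%, 55.1% and 43.4% of the probe sets in the same order. DCD was under the floor on all 4 arrays, at 7, 6, 2.7 and 2, so the arrays do not check the knockdown. All 10 luminal breast markers, including KRT8, ERBB2 and GATA3, were above the floor on all 4 arrays, and the basal keratins KRT5 and KRT14 were at it on all 4. Of 5 fibroblast markers COL1A1 and COL1A2 were above it on all 4, and the summed normalized level of the list was 362.1, 262.0, 535.3 and 251.4, whose part in the results was not tested. In RNA from whole cultures, fewer cells of a kind and less RNA per cell cannot be told apart.

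The antioxidant genes did not move in 1 direction after DCD shRNA, and each clone had its own pattern. A difference here is the log2 intensity of a clone minus that of pLKO after quantile normalization, so a difference of 1 is a doubling. The median difference of the 32 genes was -0.26 in clone 1, 0.13 in clone 2 and -0.70 in clone 3, beside 0.01, 0.00 and -0.11 for all genes. Clone 2 had the highest value of the 3 clones in 20 of the 32 genes, or 62.5%, against 34.5% of all genes, and clone 3 the lowest in 17, or 53.1%, against 44.0%. That order is also the order of the ACTB ratios, whose part in it was not tested.

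**Figure D1:**
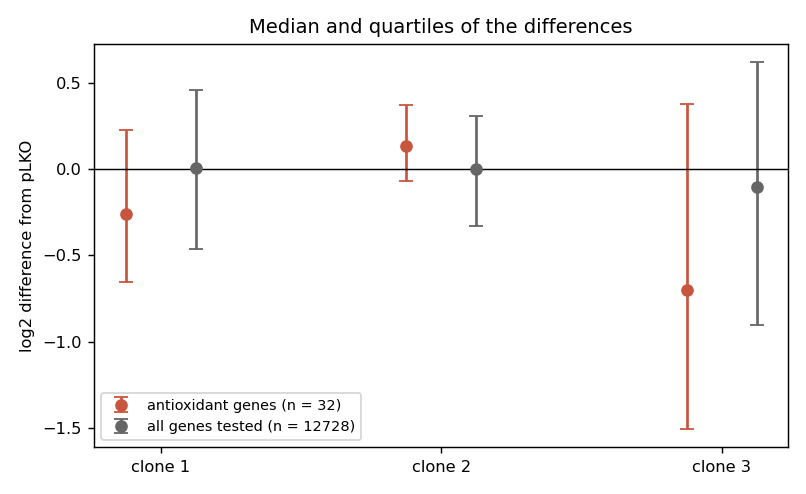
Median (points) and quartiles (bars) of the log2 difference from pLKO in each clone, for the 32 antioxidant genes and all 12728 genes that passed the filter. The antioxidant median lay under that of all genes in clones 1 and 3 (-0.26 and -0.70) and above it in clone 2 (0.13), with overlapping quartile ranges in each.

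In clone 1, 9 of the 32 genes (28.1%) were at least 1.5-fold lower than in pLKO, beside 20.4% of all genes, and 2 (6.25%) at least 1.5-fold higher, beside 19.1%. In clone 2 the counts were 1 lower (3.12%, beside 13.3%) and 6 higher (18.8%, beside 11.5%). In clone 3 they were 16 lower (50%, beside 34.6%) and 6 higher (18.8%, beside 26.0%). These shares describe the list and were not tested.

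The genes lower than pLKO in all 3 clones were PRDX2, PRDX3, PRDX4, GLRX, GPX4 and NFE2L2. These 6 are 18.8% of the 32, beside 21.3% of all genes. The 5 genes higher in all 3 clones were TXN2, TXNRD2, GSR, GSS and SOD2, or 15.6% beside 18.8%. At 1.5-fold in every clone only GLRX was lower (3.12%, beside 3.3%) and only TXNRD2 higher (3.12%, beside 2.56%). The study applied a fold of 3 in every comparison to its own array values, analyzed with dChip. In the values normalized here no antioxidant gene passed that fold either way, beside 0.181% lower and 0.0157% higher of all genes. The shares with 1 direction were therefore near the background. With 1 clone left out fewer comparisons have to be met, so such counts tend to rise whatever the array. Then 12 genes were lower in both remaining clones without clone 2 and 10 without clone 3, and 11 were higher without clone 3. The matching shares of all genes were not counted.

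The test across all probe sets made no call. limma with Benjamini-Hochberg adjustment called 0 of 27307 probe sets (0.0%) at an adjusted p of 0.05. Before adjustment 125 probe sets lower and 81 higher passed 0.05, fewer than the 1365 that 5% of the probe sets make up. None of the 32 genes passed 0.05 in limma even before adjustment, and the smallest limma adjusted p among them was 0.9998. The methods' t-test of the 3 differences passed 1 antioxidant gene, TXNRD2, before adjustment and none after it. Over all 27294 probe sets it could be run on, that second method passed 1076 lower and 1246 higher before adjustment and 0 after it. Together these are more than 5% of the probe sets, so TXNRD2 alone does not set the antioxidant genes apart. The spread behind limma comes from clones with different hairpins, and the single pLKO array is taken to be equally variable.

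**Figure D2:**
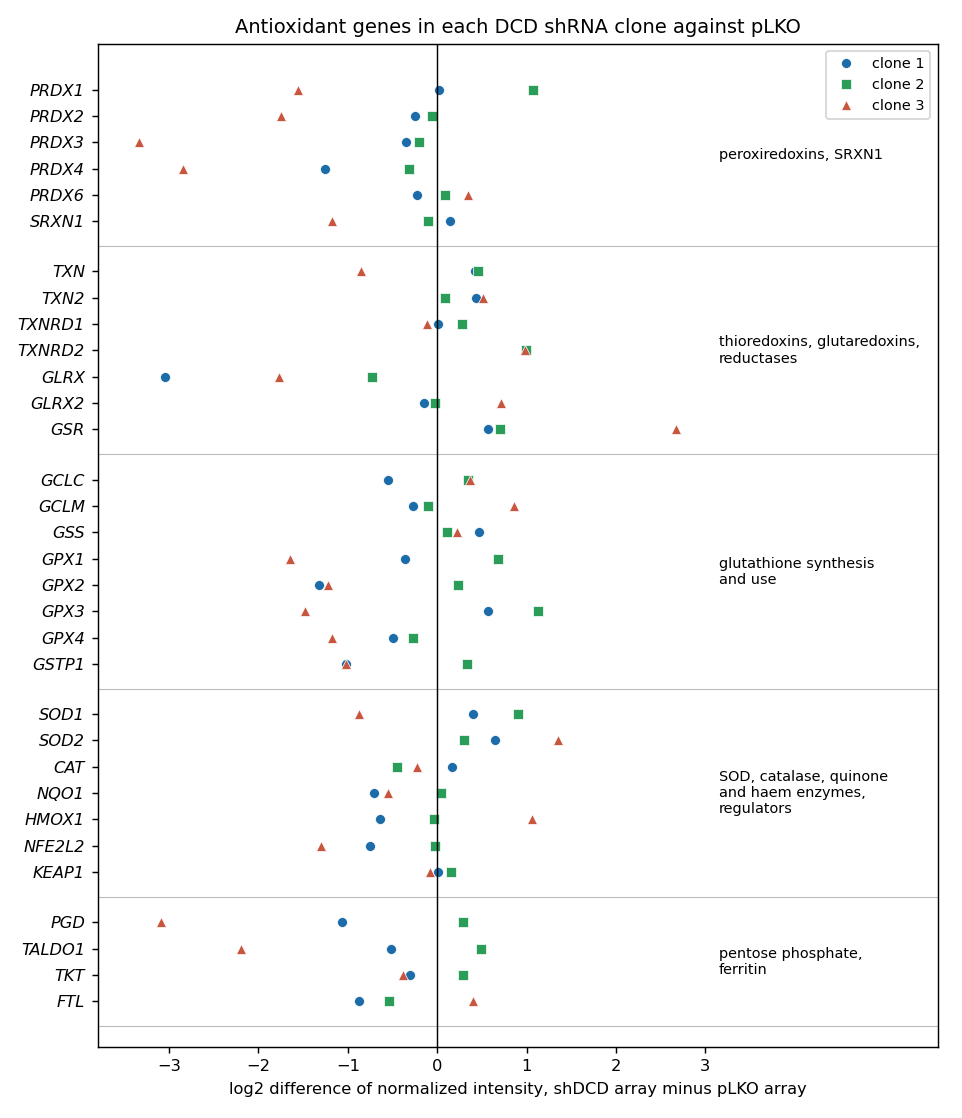
Log2 difference from pLKO (horizontal axis) of the 32 antioxidant genes in clone 1 (circles), clone 2 (squares) and clone 3 (triangles), grouped by role. GLRX lay left of 0 in every clone and TXNRD2 close to 1 in every clone, while PRDX3, PRDX4 and PGD were spread widely, with clone 3 farthest to the left.

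The peroxiredoxins gave the largest differences in clone 3. Their median with SRXN1, the sulfiredoxin that repairs over-oxidized peroxiredoxins, was -0.24 in clone 1, -0.08 in clone 2 and -1.66 in clone 3 over 6 genes, and the clone 2 median turned positive without quantile normalization (0.06 after median centring and 0.32 as deposited). PRDX3, the mitochondrial peroxiredoxin, had intensities of 649.8, 1591.8 and 55.4 in clones 1, 2 and 3 and 1424.9 in pLKO. PRDX4, the peroxiredoxin of the endoplasmic reticulum, had 225.8, 914.0 and 49.3 against 852.4. PRDX2, a cytosolic peroxiredoxin, had 563.0, 1395.6 and 122.9 against 1111.0. In each the clone 3 array was far below the others and clone 2 was close to pLKO.

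After normalization PRDX3 differed from pLKO by -0.35, -0.20 and -3.34 (mean -1.30 ± 1.77 SD, n = 3), which is 10.1-fold lower in clone 3. PRDX4 differed by -1.25, -0.32 and -2.84 (mean -1.47 ± 1.28), or 2.38-fold, 1.25-fold and 7.17-fold lower. PRDX2 differed by -0.25, -0.06 and -1.75. The spread between clones was of the size of the means or larger, and as deposited clone 2 was slightly above pLKO in all 3 genes. A second tested probe set of PRDX3 ran the other way, at 64.1, 38.6 and 15.6 against 12.4, with pLKO at the floor after normalization and differences from the floor of 2.15, 0.86 and 0.49. For PRDX2 a probe set of the x_at class, whose probes may match other transcripts, differed by 0.39, 0.24 and 2.87, against -0.82, 0.61 and -2.78 at another.

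The other genes of the group had no common direction. PRDX1, another cytosolic peroxiredoxin, had intensities of 1927.6, 6901.4 and 371.7 against 3180.5 and differences of 0.03, 1.07 and -1.56. PRDX6, which uses glutathione, had 343.1, 931.4 and 300.7 against 653.6 and differences of -0.23, 0.09 and 0.34, while its second probe set gave -0.43 in clone 3 and the deposited values of the first gave -0.93, 0.51 and -1.12. SRXN1 differed by 0.14, -0.10 and -1.17.

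The group of thioredoxins, glutaredoxins and their reductases held GLRX and GSR, the antioxidant genes with the largest negative and the largest positive mean difference. Its median over 7 genes was 0.42, 0.28 and 0.51, but those of clones 1 and 3 were negative after median centring (-0.32 and -0.27) and as deposited (-0.36 and -0.89). GLRX, the cytosolic glutaredoxin that removes glutathione from proteins, had intensities of 18.5 in clone 1, 139.5 in clone 2 and 27.3 in clone 3 against 184.9 in pLKO. All 3 clones lay below pLKO, clone 1 close to the floor. It was 8.24-fold lower in clone 1, 1.66-fold lower in clone 2 and 3.42-fold lower in clone 3, with differences of -3.04, -0.73 and -1.77 (mean -1.85 ± 1.16 SD, n = 3). Its second probe set had 24.3, 80.9 and 18.0 against 103.1 and differences of -1.81, -0.60 and -1.66. Both GLRX probe sets were thus at least 1.5-fold lower in every clone, and the gene stayed under pLKO in all 3 clones under every scaling, the deposited values included, where clone 2 was lower by less than 1.5-fold.

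GSR, the glutathione reductase, had intensities of 186.3, 419.1 and 450.8 against 186.7. Clone 1 lay just below pLKO as deposited and stood above it only after scaling. The normalized differences were 0.57, 0.71 and 2.67 (mean 1.32 ± 1.18), so that GSR was 6.38-fold higher in clone 3. Its second probe set did not repeat this, with differences of -1.41, 0.43 and 0.12.

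TXNRD2, the mitochondrial thioredoxin reductase, had intensities of 103.5, 197.7 and 64.2 against 71.8. After normalization it was 1.98-fold, 1.99-fold and 1.97-fold higher (mean difference 0.99 ± 0.01). That narrow spread was not kept under the other scalings: the differences were 0.57, 1.20 and 0.46 after median centring, and 0.53, 1.46 and -0.16 as deposited. A dimmer probe set that did not pass the filter had 16.8, 22.2 and 2.3 against 27.8, lower in every clone.

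TXN2, the mitochondrial thioredoxin, had 300.3, 488.4 and 184.6 against 341.2 and differences of 0.44, 0.09 and 0.51, but its mean turned negative after median centring and as deposited, and its other probe set gave -0.51, 0.40 and -1.62. TXN, the cytosolic thioredoxin, differed by 0.42, 0.46 and -0.85. TXNRD1, the cytosolic reductase with the core in the promoters of both starts shown above, differed by 0.01, 0.28 and -0.11, and by -0.74, 0.68 and -1.59 as deposited. GLRX2, a mitochondrial glutaredoxin, differed by -0.15, -0.02 and 0.72. After quantile normalization TXN and TXNRD1 stayed within 2-fold of pLKO in every clone, but clone 3 was lower by more than 2-fold as deposited in both, and for TXN also after median centring (-1.76).

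**Figure D3:**
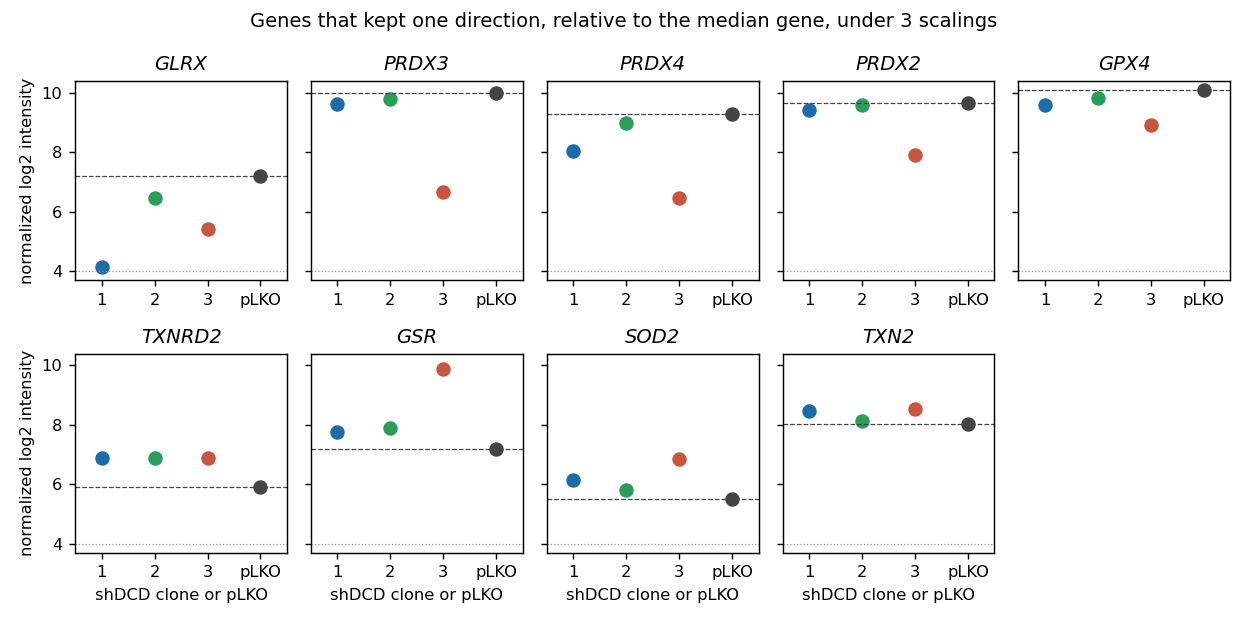
Log2 intensity after quantile normalization of 9 genes on the arrays of clones 1, 2 and 3 and pLKO, each point 1 array, with the pLKO level dashed and the floor dotted. The upper 5 genes lay below pLKO in all 3 clones and the lower 4 above it, and as deposited only GLRX and SOD2 among them kept this. Levels are comparable within a gene only.

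Genes of glutathione synthesis and use showed no shared direction over the clones. The median of 8 genes was -0.43 in clone 1, 0.29 in clone 2 and -1.10 in clone 3, with these signs under all 3 scalings. GPX4, which reduces lipid peroxides in membranes, had intensities of 631.3, 1641.4 and 235.9 against 1534.1. It was 1.41-fold, 1.20-fold and 2.27-fold lower after normalization (mean difference -0.65 ± 0.48), while clone 2 stood slightly above pLKO as deposited. GPX2, an epithelial peroxidase, had 81.4, 477.1 and 54.7 against 298.8 and differences of -1.32, 0.24 and -1.22.

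GPX1, the widespread cytosolic peroxidase, had 341.9, 1527.3 and 88.8 against 712.4 and differences of -0.36, 0.68 and -1.65. GPX3, the secreted peroxidase, had 114.5, 335.0 and 21.3 against 111.2 and differences of 0.57, 1.13 and -1.48. In all 3 of these mixed peroxidases clone 2 was above pLKO and clone 3 below it. GSTP1, a glutathione transferase, was dim, at 16.2, 57.4 and 10.1 against 35.8, and at the floor in clones 1 and 3, where it was at least 2.03-fold lower.

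The synthesis genes measured were GSS, GCLC and GCLM. GSS, the glutathione synthetase, had 603.2, 1035.6 and 302.8 against 715.1 and differences of 0.47, 0.11 and 0.22, but its mean turned negative after median centring and as deposited. GCLC, the catalytic subunit of glutamate-cysteine ligase, had 83.7, 298.7 and 93.3 against 176.3 and differences of -0.55, 0.34 and 0.37. GCLM, its modifier subunit, had 64.1, 125.7 and 82.9 against 107.1 and differences of -0.27, -0.10 and 0.87. Their other tested probe sets gave -0.87 for GCLC and -0.53 and 0.18 for GCLM in clone 3. The clone 3 values of GSS, GCLC and GCLM thus had both signs within a gene, and GSS reached -1.74 at its second probe set.

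Superoxide, peroxide and quinone enzymes and the regulators had medians over 7 genes of 0.01, 0.05 and -0.23, from genes that went both ways, although after median centring and as deposited the median was negative in clone 1 (-0.51 and -0.55) and lower in clone 3 (-1.07 and -1.69). SOD2, the mitochondrial superoxide dismutase, had intensities of 63.8, 82.3 and 63.0 against 51.8, above pLKO in every clone also as deposited. It was 1.56-fold, 1.23-fold and 2.56-fold higher after normalization (mean difference 0.77 ± 0.54, n = 3). This rests on 1 dim probe set, since 4 others are annotated to a second gene as well and were not used.

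SOD1, the cytosolic superoxide dismutase, had 2474.1, 6148.6 and 561.8 against 3096.3 and differences of 0.40, 0.90 and -0.87. CAT, the peroxisomal catalase, had 544.3, 779.1 and 248.4 against 799.0 and differences of 0.17, -0.45 and -0.23, but was lower in all clones after median centring (-0.51, -0.30 and -1.07) and as deposited, and its second tested probe set gave -0.89, 0.10 and -1.57. HMOX1, the inducible haem oxygenase, had 38.1, 88.8 and 68.4 against 73.3 and differences of -0.64, -0.03 and 1.06. After quantile normalization SOD1, CAT and HMOX1 each had both directions among the clones.

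NFE2L2 had intensities of 189.1, 651.8 and 80.5 against 492.8 and differences of -0.75, -0.03 and -1.30 (mean -0.69 ± 0.64). Clone 2 equalled pLKO within 1.02-fold and lay above it under the other scalings. A second probe set of NFE2L2 gave -0.28, 0.14 and 0.26. KEAP1 had 99.0, 209.2 and 58.6 against 141.7 and differences of 0.01, 0.15 and -0.08, within 1.11-fold of pLKO in every clone after quantile normalization. As deposited KEAP1 differed by -0.52, 0.56 and -1.27.

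NQO1, a quinone reductase widely used as a readout of NRF2 activity, had 810.8, 3044.8 and 523.8 against 2313.4 and differences of -0.70, 0.05 and -0.55. Its 3 tested probe sets shared their signs, lower in clones 1 and 3 and higher in clone 2, with very different sizes: clone 3 was 1.46-fold lower at the brightest, 6.91-fold lower at another and 21.4-fold lower at the dimmest. The direction of NQO1 in each clone thus held across its probe sets, while the size did not.

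The pentose phosphate genes PGD, TALDO1 and TKT were each lower in clone 1, higher in clone 2 and lower in clone 3 at their brightest probe set. That pattern was held by 7 of the 32 genes (21.9%, beside 12.9% of all genes) after quantile normalization. It was held by 20 of the 32 (beside 29.2% of all genes) after median centring and by 25 (beside 46.9%) as deposited. These shares were not tested. PGD, the phosphogluconate dehydrogenase, had 109.8, 571.3 and 20.9 against 344.7 and differences of -1.06, 0.29 and -3.09. TALDO1, the transaldolase, had 250.8, 1077.8 and 51.7 against 568.4 and differences of -0.52, 0.49 and -2.19. TKT, the transketolase, had 605.6, 2019.3 and 342.9 against 1261.2 and differences of -0.30, 0.29 and -0.38. Of its other tested probe sets, 1 was lower in all clones (-0.54, -0.03 and -0.43). The other, of the x_at class, differed by -0.90, 0.05 and -2.11, which is 4.32-fold lower in clone 3.

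FTL, the light chain of the iron store ferritin, had 2271.9, 5187.6 and 3654.9 against 7313.4, below pLKO on every array as deposited. Normalization turned clone 3 above pLKO, with differences of -0.87, -0.54 and 0.40. Its second probe set stayed below, at -1.64, -0.74 and -1.53. Both are of the x_at class and may match ferritin pseudogenes, so the FTL values are uncertain.

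Of the antioxidant genes, 16 had at least 2 probe sets that passed the filter. The median range between probe sets of a gene was 0.98 in clone 1, 0.25 in clone 2 and 1.64 in clone 3, beside 0.85, 0.50 and 1.36 for 5610 genes of the array. Probe sets of a gene had opposite signs for 7, 6 and 9 of the 16 genes (43.8%, 37.5% and 56.2%), beside 53.7%, 47.1% and 54.5%. The disagreement between probe sets was widest in clone 3, the array with the highest ACTB ratio, and the part of that ratio was not tested.

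**Figure D4:**
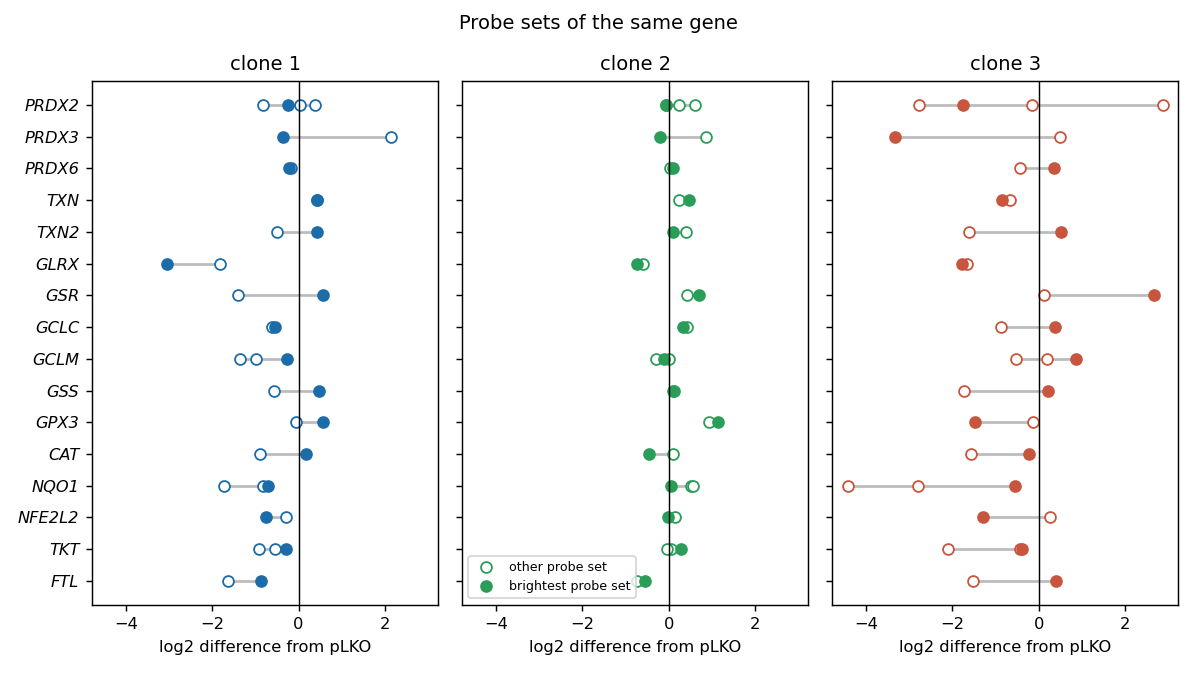
Log2 difference from pLKO (horizontal axis) at each tested probe set of the 16 antioxidant genes with at least 2, in each clone, with the brightest probe set filled and the others open. GLRX had both probe sets below 0 in every clone, whereas those of PRDX3 and PRDX2 lay on both sides of 0 in clone 3.

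The scaling of the arrays sets which directions hold. The median gene moved from 0.01, 0.00 and -0.11 in clones 1, 2 and 3 after quantile normalization to -0.37, 0.09 and -0.53 after median centring and to -0.42, 0.35 and -1.07 as deposited. As deposited, 29 of the 32 antioxidant genes were below pLKO in clone 1, 3 in clone 2 and 30 in clone 3. The matching shares of all genes were not counted, but the median gene moved the same way in each clone (-0.42, 0.35 and -1.07). Only GLRX, CAT and FTL were lower and only SOD2 higher in all clones as deposited. Relative to the median gene, the median of the antioxidant genes was -0.27, 0.13 and -0.59 after quantile normalization, -0.52, 0.20 and -0.86 after median centring and -0.52, 0.20 and -0.94 as deposited. On that relative scale PRDX2, PRDX3, PRDX4, GLRX and GPX4 were lower and TXN2, TXNRD2, GSR and SOD2 higher in all 3 clones under all 3 scalings. Median centring shifts each deposited array by 1 constant, so on this scale those 2 scalings differ only through the floor and are not separate checks. The share of all genes that kept 1 direction in this way was not counted.

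Other genes of the same pathways, listed by their known roles, gave shares near the background. Of 72 such genes 64 passed the filter, 17 were lower (26.6%, beside 21.3% of all genes) and 10 higher (15.6%, beside 18.8%) in all 3 clones, and 37 were mixed, with medians of -0.03, 0.06 and -0.37. TXNIP, the protein that binds and inhibits thioredoxin, had intensities of 1876.5, 2422.2 and 85.0 against 93.3 and was 29.3-fold, 17.4-fold and 2.11-fold higher after normalization (limma adjusted p = 0.9998). As deposited it was below pLKO in clone 3.

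The other genes of largest mean difference with 1 direction after quantile normalization were all lower. ABCC3, an exporter of conjugates, had 361.4, 447.0 and 41.8 against 1264.1 and was 2.10-fold, 3.59-fold and 12.7-fold lower. MAFF, a small MAF protein that can pair with NRF2, had 76.7, 18.6 and 135.1 against 369.8, with clone 2 at the floor and at least 17.7-fold lower. After normalization MAFF was 3.29-fold lower in clone 1 but only 1.06-fold lower in clone 3. ABCC2, another exporter of conjugates, differed by -1.21, -0.42 and -2.96. IDH1, the cytosolic NADP-dependent isocitrate dehydrogenase, differed by -1.86, -0.20 and -2.34, and IDH2, its mitochondrial relative, by -0.06, -0.06 and -3.97. As deposited, clone 2 was above pLKO for IDH1 (3643.8 against 3453.4) and IDH2 (1797.8 against 1443.4). Of the genes named in this paragraph as lower, only ABCC3 was at least 1.5-fold lower in every clone, as GLRX was among the antioxidant genes.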

How the data were processed

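Per the labels, total RNA of MDA-MB-361 derivatives was extracted with Trizol and hybridized by the standard Affymetrix protocol. The authors deposited a linear intensity for every probe set on each array. The study's methods name dChip, but which program made these intensities, and whether they were normalized, is not stated. The labels call the shDCD samples clones and the study's text calls them cell pools. No source says that they are replicate cultures of 1 hairpin, and p-values measure only the spread between these samples.

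Intensities of 0 were set to 0.1, log2 values were quantile normalized and values under 16 were set to 16. After leaving out 62 control probe sets, 27307 of 54675 probe sets were tested, those whose mean log2 value reached the median. The platform annotation named 41097 probe sets by a single gene, 1801 by several, and 11777 are unnamed here. RefSeq (GRCh38.p14) gave the current symbol of 41043 by gene identifier. A gene was represented by its brightest single-gene probe set. Each clone was compared with pLKO, and limma 3.58.1 (R 4.3.3) was fitted to the 2 groups with Benjamini-Hochberg adjustment and 2 residual degrees of freedom. The fit was tested on simulated data.

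The genes and lists were chosen with earlier results of these data known. Array values were given for genes at least 1.5-fold changed in all clones, the 2 largest mean differences each way in each role, NFE2L2, KEAP1 and genes whose probe sets disagree. Those of PRDX1, GPX1, GPX7, GSTP1 and HMOX1 were added after their values were seen. From the 72 other redox genes up to 6 with the largest 1-direction mean difference were named, and TXNIP as named by the study. Of the other marker lists, leukocyte genes (3 of 5 named) had none above the floor on all 4 arrays, and of the endothelial genes PECAM1 was above it on all 4 while CDH5 was at it. Alternatives were median centring, the deposited values, floors of 1 and 64, no filter and averaging every probe set of a gene. The others were each clone left out, an intensity trend in limma and a paired t-test of the 3 differences. The study names the paired t-test in its general statistics and not for the arrays. Depth here means signal over background, and the number of arrays limits the precision. Python 3.11.15, pandas 2.3.3 and matplotlib 3.10.9 were used.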

Additional observations from a re-analysis of the deposited data

How the results depend on the processing

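The number of antioxidant genes lower than pLKO in all clones was 6, and 3 in the deposited values. The number higher was 5, and 3 after median centring, 1 in the deposited values and 2 with the mean of all probe sets. At 1.5-fold in all clones 1 gene was lower and 1 higher. The lower one was lost in the deposited values (0), and the higher one after median centring, in the deposited values and with the mean of all probe sets (0 in each). The median of the mean differences, -0.14, moved to -0.59 after median centring and to -0.70 in the deposited values. For all genes it moved the same way, from -0.06 to -0.30 and -0.42. With 1 clone left out fewer comparisons have to be met, and the counts were 8 to 12 lower, 5 to 11 higher, 1 to 5 lower by 1.5-fold, 1 to 2 higher by 1.5-fold, 0 to 1 lower by 3-fold and 0 higher by 3-fold. The most lower genes (12, and 5 at 1.5-fold) came without clone 2 and the most higher genes (11) without clone 3, and 10 were lower without clone 3. The count of 2 higher by 1.5-fold came without clone 1 and without clone 2, and that of 1 lower by 3-fold without clone 2. The shares of all genes matching the counts under these other settings were not counted. The changes in the counts are therefore not read as particular to the antioxidant genes. limma called 1 of these genes, TXNRD2, with a floor of 64 (adjusted p = 0.00208) and with no filter (adjusted p = 0.00322), where 41.2% and 28.7% of the probe sets had no spread among the clones, against 0.0476% in the setting reported. Of all probe sets, limma called 430 lower and 5 higher of 27307 with the floor of 64. With no filter it called 1308 lower and 18 higher of 54613. With the floor of 64 the pLKO value of TXNRD2 was itself at the floor. limma called 0 of the antioxidant genes in every other setting.

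The mean difference of TXN2, 0.35, reversed to -0.051 after median centring, -0.18 in the deposited values and -0.11 with the mean of all probe sets. That of GSS, 0.27, reversed to -0.18, -0.32 and -0.23 in the same order. The cause was not tested. Without any 1 clone, the mean difference of each of the 33 genes moved by less than its SD over the clones. Any 3 values do so by arithmetic, so this does not show that a mean is stable. That of PRDX3, for example, was -1.30 with all clones and -0.28 without clone 3. With 4 arrays and 39.3% to 55.1% of probe sets under the floor, GPX7 lay too near the floor to compare, and GSTP1 in clones 1 and 3 gave only a bound.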
